A study of Mus musculus with 62 samples.

Results

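The phagocyte NADPH oxidase was followed through 5 of its genes, Cybb, Cyba, Ncf1, Ncf4 and Rac2, taken by symbol from a count table of 37620 mouse genes. All 5 were present and all 5 passed the filter on low counts in every fit. Bulk RNA had been sequenced in 62 libraries. Of these, 48 came from 24 ER-Hoxb8 clones, 1 library of granulocyte-monocyte progenitors (titled Plus) and 1 of monocytic cells (titled Minus) for each clone. ER-Hoxb8 cells are mouse bone marrow progenitors that an estrogen-regulated Hoxb8 protein keeps immature in culture; the labels state RPMI medium with serum, antibiotics and stem cell factor, and neither the time allowed for maturation nor the agent removed. Each clone is 1 cultured line, so the spread between clones is a spread between lines. Primary monocytes, isolated from bone marrow with a cell sorter, made up the remaining 14 libraries. Classical, intermediate and nonclassical cells had 2 libraries each, as did the populations called class 1, class 2, class 3 and class 4. The labels define neither the sorting gates nor the classes, and give no strain, age or treatment; nothing in them says that libraries of a primary group came from separate mice, so p-values there measure only the spread between those libraries.

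The oxidase makes superoxide from oxygen with electrons of NADPH, and phagocytes use it to kill ingested microbes. Its core is a membrane heterodimer of the catalytic subunit gp91phox (Cybb) and p22phox (Cyba), which stabilise each other. In resting cells the organiser p47phox (Ncf1) and the phosphoinositide-binding p40phox (Ncf4) wait in the cytosol, and on activation they join the membrane part together with the small GTPase Rac2. Loss of gp91phox, p22phox or p47phox causes chronic granulomatous disease, in which neutrophils and monocytes fail to kill certain bacteria and fungi.

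RefSeq promoter windows (GRCm38.p6) were at hand for 3 of the 5 members, and they are shown because these genes rose together on maturation. Each line gives the 250 bases before the transcript start, in the direction of transcription.
Cybb (chrX:9469325-9469574, minus strand): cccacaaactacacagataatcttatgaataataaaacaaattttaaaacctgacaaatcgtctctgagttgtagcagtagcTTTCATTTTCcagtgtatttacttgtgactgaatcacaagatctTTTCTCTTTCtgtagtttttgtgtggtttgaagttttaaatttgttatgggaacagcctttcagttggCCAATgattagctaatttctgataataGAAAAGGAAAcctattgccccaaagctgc
Cyba (chr8:122432941-122433190, minus strand): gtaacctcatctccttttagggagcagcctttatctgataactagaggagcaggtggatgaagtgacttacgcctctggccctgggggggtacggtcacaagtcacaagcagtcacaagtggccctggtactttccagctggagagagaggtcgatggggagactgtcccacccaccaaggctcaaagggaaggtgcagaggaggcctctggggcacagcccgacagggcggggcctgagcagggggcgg
Ncf1 (chr5:134229626-134229875, minus strand): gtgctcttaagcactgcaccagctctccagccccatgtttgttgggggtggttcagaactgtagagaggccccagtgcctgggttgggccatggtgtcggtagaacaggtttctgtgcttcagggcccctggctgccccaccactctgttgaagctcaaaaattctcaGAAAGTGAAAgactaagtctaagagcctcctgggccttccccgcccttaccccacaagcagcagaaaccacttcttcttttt
Capitals mark matches, on either strand, to 4 short motifs, none of which overlap each other here: GAGGAA (a PU.1-type ETS core), CCAAT, an interferon regulatory factor (IRF) element made of GAAA, any 2 bases and GAAA, and TTGCNNAA (a C/EBP-type element). The Cybb window held 3 matches to the IRF element, which began 168, 124 and 29 bases before the start, and 1 CCAAT that began 56 bases before it. The Ncf1 window held 1 match to the IRF element, beginning 82 bases before the start, and the Cyba window held no match to any of the 4 motifs. Among 32817 windows of the same length, 2.97% held the IRF element, 33.8% CCAAT, 23.3% GAGGAA and 9.57% TTGCNNAA. A match is a run of letters and does not show that a factor binds there.

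Depth, as total counts in M (1 M being 1000000 counts), separated the clones. Clones 1 to 13 had progenitor libraries of 12.6 to 47.3 M and monocytic libraries of 22.9 to 34.5 M. Clones 15 to 25 were shallower, their progenitor libraries holding 0.362 to 16.5 M, with clone 21 lowest, and their monocytic libraries 1.83 to 9.12 M. Primary libraries held 21.2 to 35.02 M. The 2 sets of clones are given separately where a result touches them. The labels name no batch, and clone set and depth cannot be told apart in the monocytic libraries. Checked against the labels, progenitors carried the progenitor markers (summed level 2316 to 5273 counts per 1000000, CPM, against 101 to 1324 in monocytic cells). Of 10 monocyte markers, 8 rose and 1 fell in the monocytic cells, while all 11 tested of 12 neutrophil markers also rose, to a summed 331 to 202755 CPM from 27.6 to 8295 CPM. None of the 12 neutrophil markers was at 0 throughout the monocytic group, and the part that neutrophil-type RNA plays in the changes below was not tested. In bulk RNA, fewer cells that express a gene and less RNA per cell cannot be told apart.

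All 5 subunits rose when the clones matured, in 24 of 24 clones each. With the clone as a block, 5 of 5 passed the edgeR quasi-likelihood test at an adjusted p of 0.05; so did 78.6% of the 11614 genes tested, 38.5% of them as higher. The call alone therefore sets the subunits little apart, and the sizes carry the description. The membrane subunit Cybb had the largest change and the GTPase Rac2 the smallest.

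Cybb, the catalytic subunit, lay in the progenitors between 0 and 90.7 CPM with a median of 1.35 CPM, and in the monocytic cells between 11.3 and 2501 CPM with a median of 892 CPM (n = 24 clones each). Progenitors of clones 9, 11, 12 and 25 had no Cybb read and those of 4 further clones had 1 to 3 reads, while clones 20 and 21 were highest at 90.7 and 39.4 CPM. In the clones Cybb met the filter on low counts through its monocytic libraries, so its call as higher adds little to the levels given here. The states overlapped only through the monocytic library of clone 22. In the 16 clones with more than 3 progenitor reads the rise ran from 15.2-fold to 3246-fold, with a median of 155-fold. Where the progenitors had 0 reads, Cybb was at least 373.5-fold to at least 4986-fold higher, taking 3 reads per library as the floor. The fitted log2 change was 8.60 (SE 0.797, adjusted p = 1.312e-10), a value that depends on how libraries at 0 are treated; the mean level rose 99.2-fold, from 9.18 ± 19.8 to 910 ± 553 CPM (SD).

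Cyba, the partner that anchors and stabilises gp91phox, was already present in all progenitors, at 73.7 to 304 CPM with a median of 176 CPM. In the monocytic cells it lay between 405 and 2307 CPM, with a median of 1358 CPM. The 2 ranges did not overlap. The fitted log2 change was 2.99 (SE 0.146, adjusted p = 3.29e-16), and the mean rose from 177 ± 71.3 to 1319 ± 396 CPM (SD, n = 24), 7.45-fold.

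Ncf1, the organiser of the cytosolic complex, ran from 91.8 to 441 CPM in progenitors (median 196 CPM) and from 415 to 4030 CPM in monocytic cells (median 1533 CPM). Clones 20 and 21 were the highest monocytic libraries, at 3810 and 4030 CPM, and clone 22 was the lowest and the only one inside the progenitor range. The log2 change was 2.85 (SE 0.134, adjusted p = 1.652e-16). Ncf4, which binds phosphatidylinositol 3-phosphate on the phagosome, went from 75.0 to 220 CPM (median 107 CPM) up to 174 to 954 CPM (median 452 CPM), a log2 change of 2.12 (SE 0.0986, adjusted p = 1.37e-16). Here too clones 20 and 21 were the highest and clone 22 the lowest of the monocytic libraries. Rac2, the GTPase of blood cells that switches the assembled enzyme on, lay between 311 and 742 CPM in progenitors (median 520 CPM) and between 675 and 3727 CPM in monocytic cells (median 1454 CPM), with clones 20 and 21 again the highest monocytic libraries and clone 22 the lowest. Its log2 change of 1.58 (SE 0.117, adjusted p = 1.375e-12) amounted to a 3.02-fold higher mean level.

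**Figure D1:**
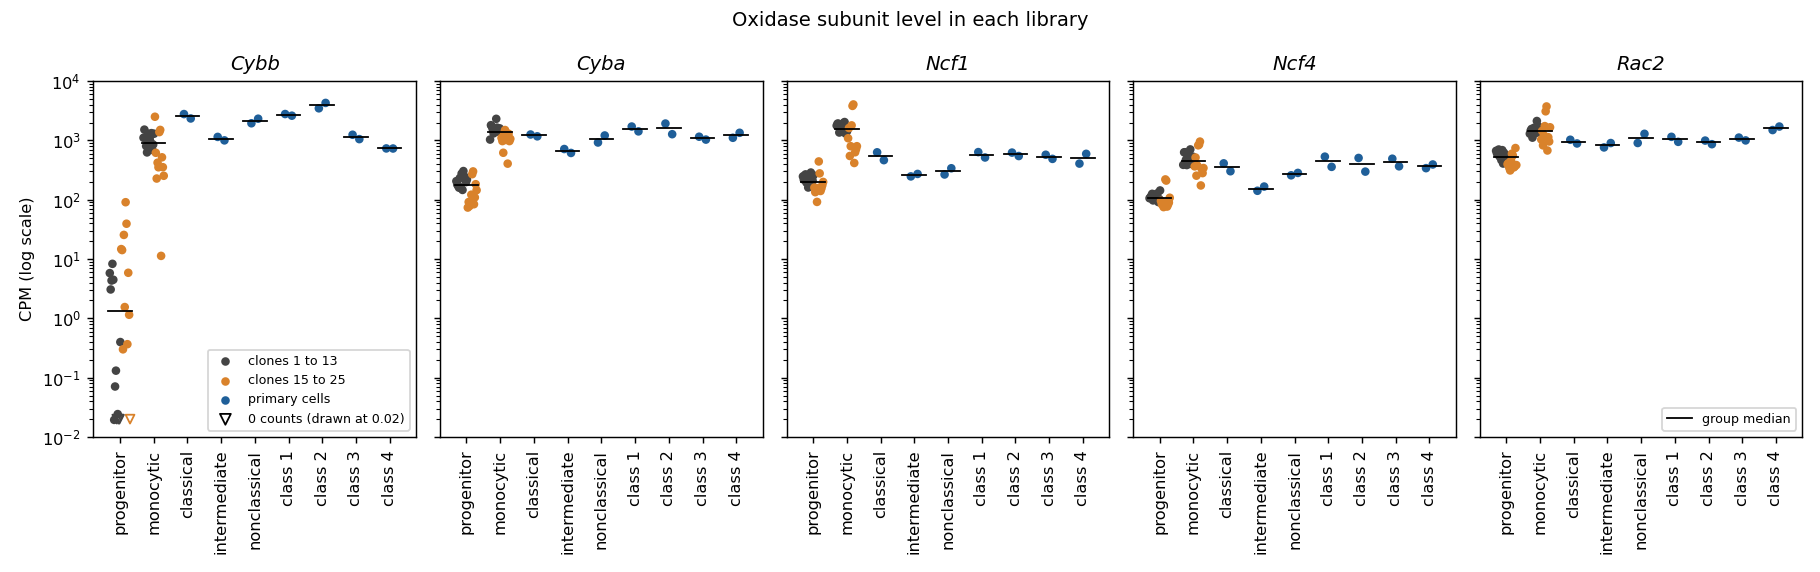
CPM of the 5 subunits in each of the 62 libraries, on a log axis, by group; points are libraries, bars are group medians, and open triangles are libraries with 0 reads. Cybb spans 0 to 90.7 CPM in progenitors, whereas the other 4 subunits start between 73.7 and 742 CPM.

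Without overlap over all 24 clones stood 1 of 5 subunits, Cyba, beside 2.63% of all tested genes. Leaving out clone 22, a choice made after its values were seen, all 5 of 5 had every monocytic library above every progenitor library, beside 4.31% of tested genes. Clone 22 was the lowest of the 24 monocytic libraries for each of the 5 subunits, with 45 Cybb reads (11.3 CPM) where the next lowest clone had 227 CPM. In that library the summed progenitor markers were the highest of the 24 (1324 CPM), the neutrophil markers the lowest (331 CPM) and the monocyte markers the 23rd (2815 CPM); their part in its low subunit levels was not tested.

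Within the sets the 5 subunits rose in each. The fitted log2 changes were 2.97 and 3.07 for Cyba, 2.98 and 2.74 for Ncf1, 2.18 and 2.09 for Ncf4, and 1.47 and 1.77 for Rac2, in clones 1 to 13 and in clones 15 to 25. For Cybb they were 10.46 and 6.52. The difference between the sets was tested as an interaction of state and set, which 1 of the 5 subunits passed, beside 23.7% of all genes tested, 17.3% as lower. Cybb gave a difference of -4.18 (SE 1.12, adjusted p = 0.00841), clones 15 to 25 minus clones 1 to 13, and kept it without clones 20 and 21 (-3.58, adjusted p = 0.0172) and without clone 22 (-4.06, adjusted p = 0.0143). The other 4 subunits differed between the sets by -0.27 to 0.26, with adjusted p from 0.431 to 0.889. Set differences within 1 state were not tested. The progenitor mean of Cybb was 2.05 ± 2.83 CPM (SD, n = 13) in clones 1 to 13 and 17.6 ± 27.3 CPM (n = 11) in clones 15 to 25, and the monocytic mean was 1055 ± 266 and 739 ± 747 CPM; the ranges overlapped in both states. Neutrophil markers moved with the set as well, 7 of 11 tested being lower in their change in clones 15 to 25 and 0 higher. Of 10 monocyte markers 3 were lower and 0 higher. The part of either list in the Cybb difference was not tested.

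**Figure D2:**
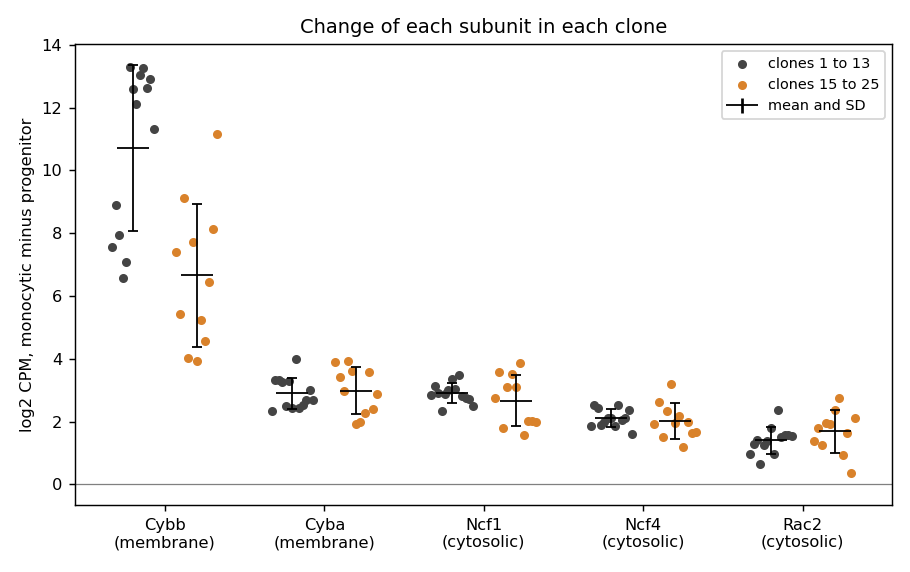
Change of each subunit in each clone, as log2 CPM in monocytic cells minus log2 CPM in progenitors, with mean and SD by clone set. Cybb spans 3.92 to 13.29, with clones 15 to 25 lower on average (6.66 against 10.71), while the other subunits change by 0.37 to 3.98 with similar means in both sets.

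Membrane and cytosolic subunits were compared clone by clone, as the difference of their log2 changes. Cybb rose more than each of the 3 cytosolic subunits in all 24 clones, by a mean of 6.05 ± 3.23 over Ncf1, 6.78 ± 3.20 over Ncf4 and 7.32 ± 3.27 over Rac2 (SD). The size of every Cybb difference depends on how progenitor libraries with few or no Cybb reads are treated. With a prior count of 0.5 these 3 means were 6.6, 7.3 and 7.9. In clones 1 to 13 they were 7.80, 8.59 and 9.30, and in clones 15 to 25 they were 3.99, 4.64 and 4.97. Cyba lay between its membrane partner and the cytosolic subunits Ncf4 and Rac2. It rose less than Cybb in 24 of 24 clones, by 5.91 ± 3.26, and its lead over Ncf1 was 0.15 ± 0.84, with the larger change in 15 of 24 clones, a mean smaller than the spread between clones. Cyba exceeded Ncf4 by 0.87 ± 0.61 in 21 of 24 clones and Rac2 by 1.41 ± 0.90 in 22 of 24. Among the cytosolic subunits Ncf1 rose more than Ncf4 in 24 of 24 clones (0.73 ± 0.38), and Ncf4 more than Rac2 in 21 of 24 (0.54 ± 0.53). These differences are given without a test.

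Levels were compared between subunits per kilobase (kb) of the principal transcript. In progenitors Cybb was last of the 5 in 24 of 24 libraries, and Cyba was first in 18 and Rac2 in 6. In monocytic cells Cyba was first in 23 of 24 libraries and Cybb still last in 23. In primary monocytes Cyba was first in all 14 libraries, and Cybb was the second in both libraries of the classical, nonclassical, class 1 and class 2 cells. It was the third in both intermediate libraries, the fourth in both class 3 libraries, and the fourth and last in the class 4 libraries. Ncf1 was last in 13 of the 14. The ratio of Cyba to Cybb per kb was 2.89 to 3.19 in classical cells, 1.90 to 3.54 in class 2, 9.65 to 11.8 in class 4 and 2.81 to 229 (median 11.6) in monocytic clones. With lengths taken over all exons of a gene, an alternative added after seeing the data, Rac2 and not Cyba was first in 14 of 24 progenitor libraries, Cybb was last in 22 of 24 monocytic ones, and Cybb was the second in 1 of 2 nonclassical libraries.

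**Figure D3:**
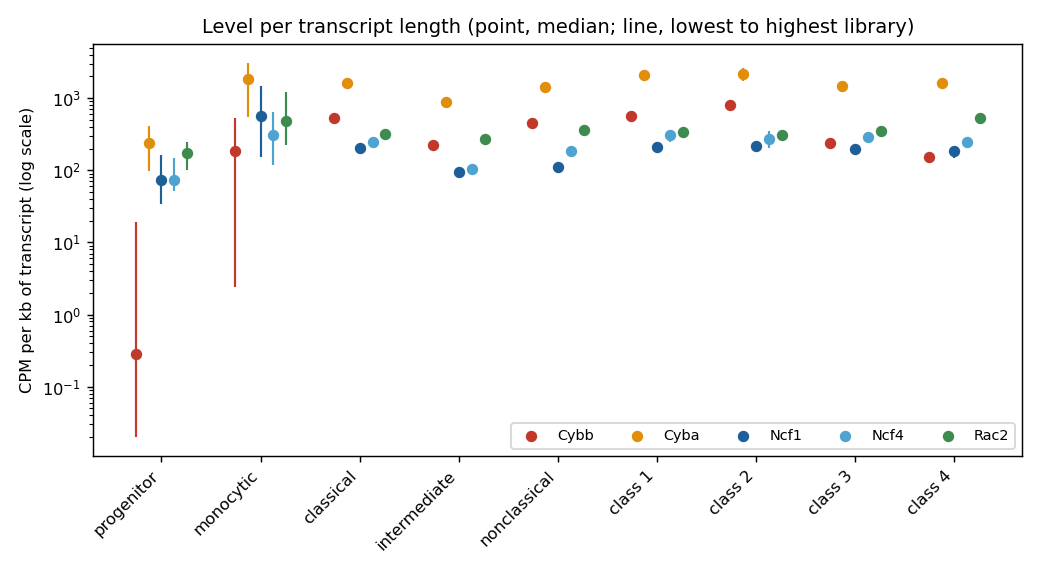
Level of each subunit as CPM per kb of transcript, on a log axis, by group; points are medians and lines run from the lowest to the highest library, values under 0.02 being drawn at 0.02. Cyba has the highest median in every group, and Cybb moves from last place in the clones to the second place in classical, nonclassical, class 1 and class 2 cells.

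Set beside the 14 primary libraries, the clones' monocytic cells lay outside the primary range most often for Ncf1 and Cybb among the 5 subunits. Ncf1 exceeded the highest primary library (634 CPM) in 21 of 24 monocytic clones, and Cybb lay under the lowest primary library (729 CPM) in 10 of 24 and never exceeded the highest (4276 CPM). For Ncf4 7 clones, for Rac2 5 and for Cyba 1 stood above the highest primary library. The share of all genes that lay outside the primary range this often was not counted. Clones and primary cells differ in culture and source, so these levels are side by side and were not tested.

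Clones could differ in how much of the oxidase they make in both states. The clone effect passed the test for 2 of 5 subunits, beside 11.7% of all genes tested: Ncf1 (F = 3.51, adjusted p = 0.0172) and Ncf4 (F = 3.90, adjusted p = 0.00996), and not for Cybb (0.361), Cyba (0.171) or Rac2 (0.187). Both calls rested on 2 clones. Without clones 20 and 21 the adjusted p rose to 0.187 for Ncf1 and 0.211 for Ncf4, and within clones 1 to 13 it was 1.0 for both at 2 digits. Within clones 15 to 25 alone Ncf1 and Ncf4 reached 0.0880 and 0.0668, and there Cybb passed with 0.0395.

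Progenitor and monocytic levels were also correlated over the 24 clones, a measure on the same libraries that is not independent of the clone effect. With 100000 permutations, adjusted over 11614 genes, 2 of 5 subunits passed, beside 9.02% of genes. Pearson's r was 0.67 for Ncf1, with a raw permutation p of 0.00038 and an adjusted one of 0.0107. It was also 0.67 for Ncf4, with 0.0003 raw and 0.00915 adjusted in the same permutation test. Ranked by Spearman's rho the values were 0.64 for Ncf1 (raw permutation p = 0.00089, 0.0302 once adjusted) and 0.65 for Ncf4 (0.00083 and 0.0297). The other 3 did not pass the permutation test: r and rho were 0.45 and 0.29 for Cyba (raw p = 0.0237 and 0.163, adjusted 0.131 and 0.456), 0.28 and 0.18 for Rac2 (raw p = 0.19 and 0.402) and 0.19 and 0.20 for Cybb (raw p = 0.404 and 0.339). Without the 2 clones farthest from each gene's progenitor median, r was 0.59 for Ncf1 (clones 18 and 20), 0.50 for Ncf4 (20 and 21), 0.35 for Cyba (15 and 17), 0.16 for Rac2 (17 and 18) and 0.09 for Cybb (20 and 21). Leaving out clones 20 and 21 for every gene, neither Ncf1 (r = 0.54) nor Ncf4 (r = 0.50) passed, with adjusted permutation p of 0.0851 and 0.114. Within the clone sets the values differed. In clones 1 to 13 r was 0.14 for Ncf1 and 0.35 for Ncf4 (raw permutation p = 0.644 and 0.236), and in clones 15 to 25 it was 0.68 and 0.71 (raw permutation p = 0.0196 and 0.0145). Cybb had r = -0.08 over the first 13 clones, r = 0.68 over the other 11 (raw permutation p = 0.785 and 0.0131), and r = 0.48 centred on the set (raw permutation p = 0.0206, adjusted 0.26). No subunit passed after adjustment within either set, which hold 13 and 11 clones. Centred on the set, Ncf1 kept r = 0.62 and Ncf4 r = 0.66, with adjusted p of 0.236 and 0.156. On the residuals of the log2 total count r was 0.57 for Ncf1 and 0.59 for Ncf4 (raw permutation p = 0.00479 and 0.00224), with adjusted p of 0.170 and 0.120. Clones 20 and 21 were the 2 highest in neutrophil markers among progenitors (8295 and 5869 CPM, against a median of 120 CPM) and the third and the second highest among monocytic cells (125300 and 166300 CPM); the part of these RNAs in the clone differences was not tested.

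**Figure D4:**
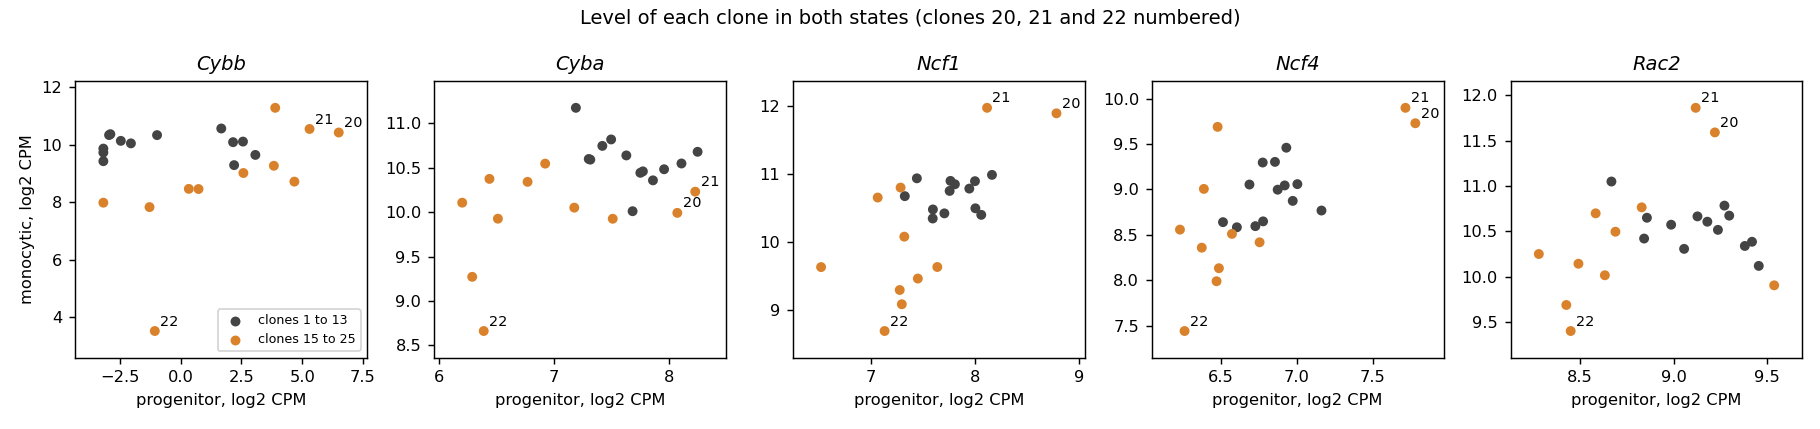
Level of each subunit in the monocytic state against the progenitor state of the same clone, in log2 CPM, with clones 20, 21 and 22 numbered. For Ncf4, clones 20 and 21 lie at the upper right and clone 22 at the lower left, and over all 24 clones r is 0.67; for Cybb it is 0.19.

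Which genes varied most like each subunit was asked over the 48 clone libraries, centred on state and clone set, among 7073 genes; these are descriptions over libraries that share clones and depth. Ncf1 and Ncf4 were close to each other (r = 0.891, each the fourth most similar gene to the other), and Rac2 was close to Ncf1 (r = 0.842). Cybb and Cyba were not, at r = 0.264 and place 1226 and 1162 on each other's list. The genes most like Cybb were Slfn2 (r = 0.93), Fgr (0.897), a myeloid Src-family kinase, and Chi3l3 (0.885), a chitinase-like gene with near-identical copies that makes its counts uncertain. Tspo, Tmsb4x and Tyrobp came first for Cyba (0.838, 0.83 and 0.817), Abtb1, Triobp and Stxbp2 for Ncf1 (0.922, 0.902 and 0.902), Coro1a, Sirt7 and Dok3 for Ncf4 (0.911, 0.904 and 0.892) and Rhog, Mapk3 and Myl12b for Rac2 (0.888, 0.871 and 0.867). Tyrobp is an adaptor of myeloid receptors, and Coro1a is an actin-binding protein that co-purifies with p40phox. Over all 62 libraries the closest genes by Spearman's rho were Fgr and Nfam1 for Cybb (0.949 and 0.934), Ostf1, Itm2b and Bin3 for Cyba (0.946, 0.925 and 0.921), Pygl, Rhog and Prdx5 for Ncf1 (0.964, 0.962 and 0.957), Ncf1 and Prdx5 for Ncf4 (0.952 and 0.948) and Gpsm3, Rhog and Ncf1 for Rac2 (0.952, 0.933 and 0.921). Again the cytosolic subunits stood near each other and apart from Cybb. Cyba, the other membrane subunit, was closer to Ncf4, Ncf1 and Rac2 (rho 0.901, 0.858 and 0.839) than to Cybb (0.757).

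Partners of the enzyme were measured in the same libraries. Cybc1, a chaperone of the membrane heterodimer, rose by 1.27 (SE 0.094, adjusted p = 1.322e-12), and Rac1, the ubiquitous relative of Rac2, by 0.77 (SE 0.0982, adjusted p = 5.11e-08). A further 9 listed genes, the catalytic subunits, organisers and maturation factors of other NADPH oxidases (Nox1, Nox3, Nox4, Noxa1, Noxo1, Duox1, Duox2, Duoxa1 and Duoxa2), were too low to be tested in the clones.

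Genes around the enzyme were read from 4 lists, whose members were picked with earlier results of these data known. Their counts stand beside 38.5% of all tested genes called higher and 40.1% called lower. Of 21 assembly and signalling genes tested, 18 rose and 3 fell, with a median log2 change of 0.93 where all tested genes had -0.02. Among the kinases that phosphorylate p47phox, Prkcb rose by 4.48 (SE 0.251) and Prkca fell by 4.64 (SE 0.392), and Hvcn1, the proton channel that balances the charge of the oxidase, rose by 3.83 (SE 0.259). Of 10 tested genes that supply NADPH, 7 rose and 2 fell (median 1.13), led by Pgd (2.54, SE 0.157), G6pdx (2.28, SE 0.129) and Nadk (1.79, SE 0.109), while Rpia had 0.11 (SE 0.169, adjusted p = 0.564). Of 16 genes that handle reactive oxygen, 11 rose and 2 fell (median 0.72), with Hmox1 at 4.99 (SE 0.510), Prdx5 at 3.31 (SE 0.162) and Gsr at 2.40 (SE 0.176), and Prdx6 at -0.02 (SE 0.136, adjusted p = 0.882). Of 8 tested regulators of oxidase genes 6 rose and 2 fell (median 2.06), the largest changes being Cebpe (4.94, SE 0.453), Cebpb (2.74, SE 0.193) and Irf8 (2.59, SE 0.268). Cebpe is also a factor of neutrophil granule genes.

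In the primary monocyte subsets 4 of the 5 subunits were lower in both intermediate than in both classical libraries, as were 34.1% of 13928 genes. Cybb was 2774 and 2339 CPM in the 2 classical libraries, 1144 and 1000 CPM in the intermediate and 1941 and 2317 CPM in the nonclassical. Cyba was 1255 and 1169, then 714 and 613, then 920 and 1209 CPM in the same order. Ncf1 was 629 and 464, then 247 and 272, then 266 and 339 CPM, so that nonclassical cells overlapped with intermediate and not with classical cells. Ncf4 was 409 and 302, then 141 and 166, then 258 and 283 CPM, and Rac2 was 1024 and 886, then 760 and 901, then 903 and 1289 CPM. Of the 5, Rac2 alone overlapped between classical and intermediate cells.

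None of these differences passed the test at an adjusted p of 0.05: 0 of 5 subunits were called between intermediate and classical cells, where 2.11% of 13944 genes were, 0 of 5 between nonclassical and classical cells (5.82% of genes) and 0 of 5 between nonclassical and intermediate cells (0% of genes). At an unadjusted p under 0.05, 3018, 3260 and 1710 genes passed in the 3 comparisons. The log2 differences of intermediate from classical cells were -1.19 for Cybb (SE 0.185, adjusted p = 0.0524), -0.81 for Cyba (SE 0.181, 0.0957), -1.02 for Ncf1 (SE 0.223, 0.0914), -1.15 for Ncf4 (SE 0.226, 0.0754) and -0.14 for Rac2 (SE 0.206, 0.719). With DESeq2, or with subsets and classes fitted together, the first 4 of these passed. Those settings called 3077 and 2331 of all genes, against 294 in the main fit. Without a filter or with a minimum count of 50, Cybb alone passed (edgeR adjusted p = 0.0382 and 0.0453). Nonclassical cells differed from classical cells by -0.82 for Ncf1 (SE 0.222, adjusted p = 0.112) and by -0.35 to 0.23 for the other 4. Ncf1 passed with DESeq2 (adjusted p = 0.00522) and in the joint fit (0.0306). Those settings called 3317 and 2742 of all genes, against 811 in the main fit. Nonclassical cells were higher than intermediate cells by 0.97 for Cybb (adjusted p = 0.251), 0.66 for Cyba, 0.80 for Ncf4, 0.37 for Rac2 and 0.20 for Ncf1; DESeq2 called 1205 genes there, Cybb, Cyba and Ncf4 among them.

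The partners Rac1 and Cybc1 had log2 differences of -0.93 and -1.19 between intermediate and classical cells that did not pass (adjusted p = 0.0642 and 0.0789), and Rac1 passed between nonclassical and classical cells (-0.93, adjusted p = 0.0468). Other cells' markers moved with the subset. In intermediate cells the summed monocyte markers were 4466 to 4676 CPM against 13165 to 14264 CPM in classical cells (of 10 markers 1 was higher and 4 lower at the threshold), and mast, basophil and eosinophil markers were 1407 to 3317 CPM against 3.88 to 5.51 CPM (2 of 7 higher). Nonclassical cells had 6877 to 8022 CPM of monocyte markers (1 of 10 higher and 4 lower than in classical cells). Their mast, basophil and eosinophil markers were 480 to 2501 CPM (4 of 7 higher). B-cell markers were 395 to 437 CPM in intermediate and 1876 to 2070 CPM in nonclassical cells, against 32.7 to 34.8 CPM in classical cells (6 of 7 higher in each). Cd8a was at 0 in both intermediate libraries, and Siglecf, Epor and Ccr9 in both nonclassical ones. The part of these cells' RNA in the lower subunit levels was not tested.

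**Figure D5:**
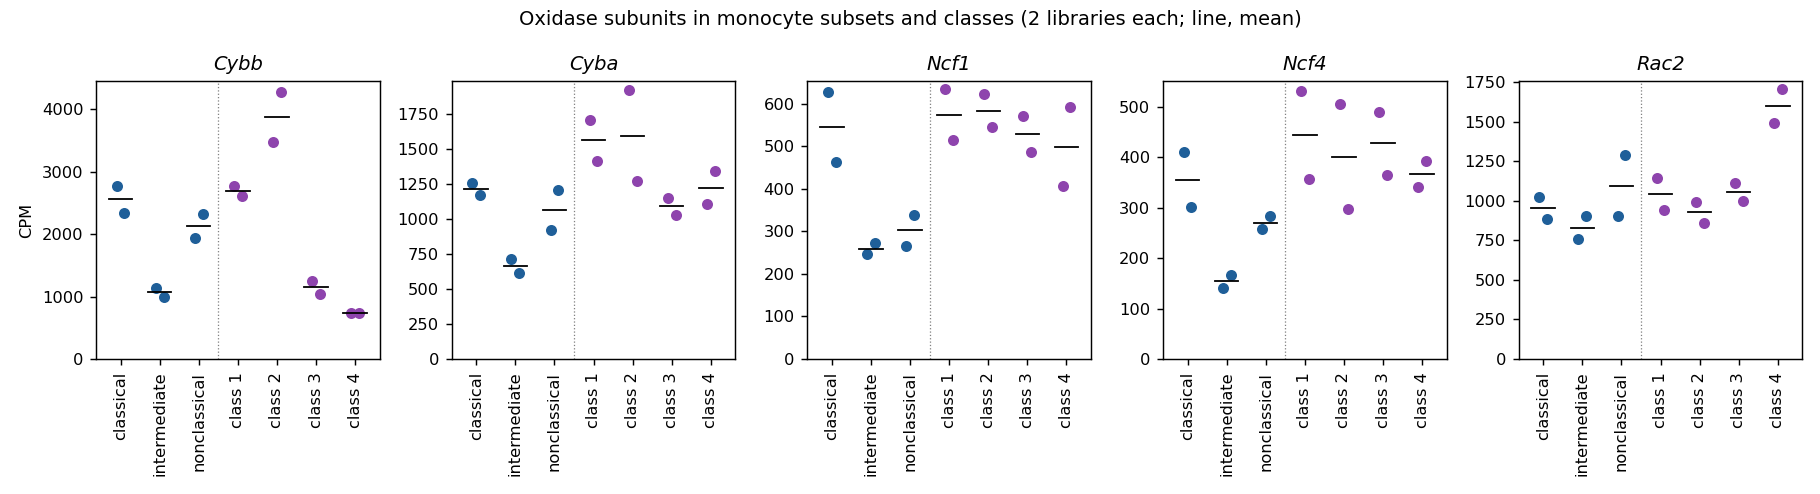
CPM of the 5 subunits in the 14 primary libraries, 2 per group, on linear axes from 0; points are libraries and bars are means. Cybb is highest in class 2 (3469 and 4276 CPM), followed by class 1, class 3 and class 4 (731 and 729 CPM); Rac2 is highest in class 4.

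Across the 4 classes the subunits parted. Cybb differed in all 6 pairs of classes and Rac2 was higher in class 4, while Cyba, Ncf1 and Ncf4 did not pass the test over the 4 classes. In all, 2 of 5 subunits passed that test, beside 43.8% of the 13686 genes tested: Cybb (adjusted p = 6.343e-05) and Rac2 (0.0153), with Cyba at 0.111, Ncf1 at 0.625 and Ncf4 at 0.836.

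Cybb was 3469 and 4276 CPM in class 2, 2778 and 2605 CPM in class 1, 1243 and 1049 CPM in class 3 and 731 and 729 CPM in class 4. No 2 of these classes overlapped, a pattern whose share over all genes was not counted, and the order ran from class 2 down to class 4. From class 1 to class 4 Cybb fell by 1.88 on the log2 scale (SE 0.157, adjusted p = 0.000308; 25.1% of genes were called, 15% as lower) and from class 2 to class 4 by 2.47 (SE 0.16, adjusted p = 2.943e-05; 40.9% called, 21.4% as lower). Class 3 was lower than class 1 by a log2 difference of -1.22 (adjusted p = 0.00207; 13.4% of genes called, 7.94% as lower) and lower than class 2 by -1.82 (adjusted p = 0.000116; 24.2%, 12.4% as lower). The steps between neighbours were less certain. Class 4 was below class 3 by -0.66 (adjusted p = 0.0157; 28.6%, 15.7% as lower), which became 0.0874 without the first class 3 library. Class 2 was above class 1 by 0.60 (SE 0.152, adjusted p = 0.0482; 9.29%, 3.34% as higher), and this was lost with size factors from DESeq2 (0.0585), with a replicate block (0.0592), in the joint fit with the subsets (0.0622) and without either class 1 library, the second class 2 library or either class 3 library (0.0522 to 0.248).

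Rac2 was 1492 and 1710 CPM in class 4, against 944 to 1147 CPM in class 1, 862 to 991 CPM in class 2 and 998 to 1114 CPM in class 3. The 2 class 4 libraries lay above the other 6, again a pattern whose share over all genes was not counted. The log2 differences were 0.62 from class 1 (SE 0.152, adjusted p = 0.0213), 0.72 from class 2 (SE 0.152, adjusted p = 0.00684) and 0.60 from class 3 (SE 0.152, adjusted p = 0.0224); of all genes, 10.2%, 19.5% and 13% were called higher in these comparisons. The difference from class 1 lost its call without the second class 1 library (adjusted p = 0.132), without the second class 4 library (0.0703) and in the joint fit (0.0509). That from class 3 lost it without either class 3 library (0.0584 and 0.141), without the second class 4 library (0.0763) and in the joint fit (0.0771). Over the 4 classes Rac2 did not pass without the second class 4 library (adjusted p = 0.081).

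Cyba was 1710 and 1417 CPM in class 1, 1920 and 1271 CPM in class 2, 1152 and 1030 CPM in class 3 and 1105 and 1341 CPM in class 4. Class 3 lay below classes 1 and 2 by log2 differences of -0.51 (adjusted p = 0.162) and -0.61 (adjusted p = 0.0737), neither of which passed. Without a filter both did (0.0222 and 0.00236), and the second also did with DESeq2 (0.0217) or without the second class 2 library (0.0192). Ncf1 was 634 and 514, 622 and 544, 572 and 487, and 406 and 593 CPM in classes 1 to 4, and Ncf4 was 531 and 358, 505 and 297, 490 and 365, and 340 and 392.4 CPM. Both overlapped between every pair of classes. The membrane pair was thus uneven here as well: between class 2 and class 4 the mean level of Cybb was 0.189 times that of class 2 and that of Cyba 0.767 times.

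Rac1 and Cybc1 were lower in class 4 than in class 1, by log2 differences of -0.90 and -0.68 (SE 0.131 and 0.126; adjusted p = 0.00255 and 0.00685). Markers of other cells were high in class 4. Its summed neutrophil markers were 53173 to 74438 CPM against 1025 to 1900 CPM in class 1, 1793 to 2108 CPM in class 2 and 7031 to 11537 CPM in class 3 (11 of 12 higher than in class 1), its erythroid markers 3796 to 4788 CPM (6 of 7 higher) and its B-cell markers 2268 to 2757 CPM (7 of 7 higher). Its monocyte markers summed to 4230 to 4307 CPM against 13647 to 14320 CPM in class 1 (9 of 10 lower). Csf1r, the receptor for the growth factor M-CSF on monocytes, had a mean of 2347, 2130, 840 and 250 CPM in classes 2, 1, 3 and 4, the same order as Cybb. It is 1 of the 10 monocyte markers, and not all of them kept that order. Of the 10, 3 were higher and 1 lower in class 2 than in class 1, and 1 was higher and 6 lower in class 4 than in class 3. No marker of these 4 lists was at 0 in both class 4 libraries. The part of other cells' RNA in the Cybb and Rac2 differences was not tested.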

How the data were processed

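Total RNA (RNeasy, NEB library kits) was sequenced, per the labels' protocols. The authors deposited raw counts per gene; the tools were STAR 2.7.3a and HTSeq 0.6.0 with build mm9, per the submitters' processing notes, and the strand setting is not given in the sources used here. Of the table's columns 1 matched no sample and was not used. Groups came from titles and source names, and the clone number paired the states. Counts were fitted with edgeR 4.0.16 in R 4.3.3 (filterByExpr, minimum count 10, TMM scaling, quasi-likelihood F tests, Benjamini-Hochberg over all genes tested, threshold 0.05), with the clone as a block, and separately over 6 subset and 8 class libraries. Printed levels are TMM-scaled CPM over 62 libraries; log2 CPM used a prior count of 2, and transcript lengths came from GENCODE M21. Correlations used 100000 permutations (Python 3.11.15), 2-sided. DESeq2 1.42.0 was an alternative. Same-numbered subset libraries deviated together (r = 0.18, 0.281 and 0.384), and a replicate block changed no subunit call there. In simulated counts that gave every gene the same spread, 2-fold changes were recovered at 100% between states. There, 4-fold changes were recovered at 0% between nonclassical and classical cells and at 39% between class 4 and class 1. Members, partners and lists were chosen with earlier results of these data known; the rule named the 5 members, all partners, 3 genes per list with the largest called change and the most expressed one not called, and 3 most alike genes per member and measure; some genes that the rule named are not reported here.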

Additional observations from a re-analysis of the deposited data

Results flagged for a closer look

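The state change of Cybb differed between the clone sets by -4.18 on the log2 scale (SE 1.12, edgeR adjusted p = 0.00841), the change in clones 15 to 25 being the smaller one; Cybb rose in 13 of 13 and in 11 of 11 clones. It was flagged because the difference itself was tested as an interaction. The sets also differ in depth, and 7 of 13 progenitor libraries in clones 1 to 13 held 0 to 3 Cybb reads.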

How the results depend on the processing

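The state change kept its direction and its call for all 5 subunits under the 10 alternatives run, with log2 changes of 6.52 to 10.46 for Cybb, 2.88 to 3.09 for Cyba, 2.74 to 2.98 for Ncf1, 2.01 to 2.18 for Ncf4 and 1.47 to 1.77 for Rac2; with no replicate block Cybb gave 6.77. Ncf4 reversed sign in the set difference without a filter (0.0073), and Cybb, Cyba and Rac2 did in the correlation within clones 1 to 13 (-0.0816, -0.422 and -0.566). Within those clones the lead of Cyba over Ncf1 was -0.0014. The clone effect was called for 0 subunits in clones 1 to 13 and without clones 20 and 21, and for 1 in clones 15 to 25. The correlation was called for 0 subunits centred on the set, in either set, on depth residuals and without clones 20 and 21. Subunits called between intermediate and classical cells numbered 1 without a filter or at a minimum count of 50, and 4 in the joint fit and with DESeq2; between nonclassical and classical cells 1 in the joint fit and with DESeq2; between nonclassical and intermediate cells 1 and 3. Between class 2 and class 1 they numbered 0 with size factors, a replicate block or the joint fit, between class 3 and class 1 2 without a filter, between class 3 and class 2 2 without a filter or with DESeq2, and between class 4 and class 1 or class 3 1 in the joint fit. Leaving out 1 library gave 0 to 0 called subunits in the 3 subset comparisons, 0 to 1 for class 2 against class 1, 1 to 2 for class 4 against class 1 and class 3 against class 2, 0 to 2 for class 4 against class 3 and 1 to 3 over the 4 classes. In the classes same-numbered libraries did not deviate together (correlations from -0.0106 to 0.0728), so the block there rests on a shared number only.

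Counts over all genes moved by more than 1.5 times in these settings: state, 6070 in clones 15 to 25 (9132 in the main analysis); set, 4413 without clones 20 and 21 (2755); clone, 2054 without a filter, 36 in clones 1 to 13 and 387 in clones 15 to 25 (1357); correlation, 520 by Spearman, 130 centred, 5 and 54 within the sets and 115 on depth residuals (1048). In the set difference 748 genes were higher and 2007 lower, against 1139 and 1587 with DESeq2 size factors. Intermediate against classical gave 0 to 205 with 1 library left out, 2331 in the joint fit and 3077 with DESeq2 (294); nonclassical against classical 0 to 869, 2742 and 3317 (811); nonclassical against intermediate 624 and 1205 (0). For class 2 against class 1 it was 495 to 2325, 572 in the joint fit, 2194 with DESeq2 and 2325 without a filter (1272); for class 3 against class 1 615 to 2944, 888 and 2767 (1831). The joint fit gave 1722 for class 4 against class 1 (3442, or 1546 to 4305 with 1 library left out), 2005 for class 3 against class 2 (3310, 1922 to 4342), 3357 for class 4 against class 2 (5604, 3487 to 6099), 1993 for class 4 against class 3 (3917, 1798 to 4704) and 3500 over the classes (5994). Where the cause is not in the number of libraries or genes, the cause was not tested. With 2 libraries a group, a subunit that did not pass may still differ. Simulated 4-fold changes were found at 0% between nonclassical and classical cells and at 39% between class 4 and class 1. The simulated counts gave every gene the same spread, so these shares do not give the power for the subunits themselves.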

Other observations

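The highest monocytic Cybb level, 2501 CPM, was that of clone 15. The same library had the lowest summed progenitor markers of the 24 (100.5 CPM), the second highest macrophage markers (1510 CPM) and the third highest monocyte markers (8506 CPM), while its neutrophil markers (21650 CPM) were the 18th. Its levels of Cyba (1101 CPM), Ncf1 (1086 CPM), Ncf4 (364.5 CPM) and Rac2 (1034 CPM) were all below the medians of the monocytic group.

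Nox4, the catalytic subunit of another NADPH oxidase, exceeded 1 CPM in 2 of the 62 libraries. The progenitors of clone 21 had 7 reads (15.3 CPM in the shallowest library) and the second intermediate library had 81 reads (3.74 CPM), while the first intermediate library had 0.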
